A study of Mus musculus with 12 samples.

Results

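Receptors built on the TRAV6 family of the T cell receptor alpha locus were described in T cells from MC38 tumours of mice treated with LNP-P20-mAb or LNP-Ctrl. Members were the alpha (TRA) chains whose deposited V segment name was 1 of 10 listed names: TRAV6-1, TRAV6-4, TRAV6D-4, TRAV6-5, TRAV6-6, TRAV6D-6, TRAV6N-6, TRAV6-7-DV9, TRAV6D-7 and TRAV6N-7. They made up 2850 of 24173 alpha chains (11.8%), lay on 2820 cell barcodes and formed 1457 distinct alpha rearrangements by nucleotide sequence. The family was picked with its chain counts in view, so its size is a description. Of the 10 names, 8 were found and 2 were not. TRAV6-6 and TRAV6D-7 were on 0 of 24173 alpha chains, which by counting alone allows a share of up to 0.0124% each. Names were used as deposited, and whether chains of either segment carried the name of a near-identical copy was not tested. Another 5 TRAV6 names outside the list carried 359 chains and were counted with the other alpha chains.

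The study gave 1 intratumoral dose of 40 µg LNP-P20-mAb or LNP-Ctrl on day 10 after subcutaneous injection of MC38 cells, a mouse colon cancer line, into C57BL/6J mice aged 6 to 8 weeks. Tumours measured about 50 to 100 mm³ at that time. The cell line was p53-deficient and carried a p53 variant in all groups, which the labels name MC38-p53KO/R175H in one field and R175W in another. CD45+ cells were sorted, about 10000 per sample, and 3 T cell receptor libraries per treatment are described here (LNP-P20-mAb 1 to 3 and LNP-Ctrl 1 to 3). The labels do not say whether each library came from a separate mouse, and each p-value therefore rests on how far these libraries differ, which may be technical. The 6 matched gene expression libraries were not analysed here, so neither cell type markers nor antigen specificity was measured.

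An alpha chain is made when a T cell precursor joins 1 TRAV segment to 1 TRAJ segment, with bases lost and added at the junction. That junction, the CDR3, contacts the peptide, while the CDR1 and CDR2 loops are encoded by the TRAV segment itself. The locus of this mouse strain holds duplicated blocks of TRAV segments, and the letters D and N in a name mark copies in those blocks. TRAJ segments are numbered downwards with distance from the TRAV segments, and a cell can join again on the same chromosome with a TRAV segment lying farther out and a TRAJ segment with a lower number. TRAV6-7-DV9 carries its second name because the segment can also be used by delta chains.

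The copies differed at few bases, and the bases are shown because the copy name decides several results below. TRAV6-4 and TRAV6D-4 differed at 7 of 267 bases between the start of framework 1 and the end of framework 3, TRAV6D-6 and TRAV6N-6 at 5 of 273, and TRAV6-7-DV9 and TRAV6N-7 at 5 of 267. One sequence of that stretch accounted for 99.0% to 100% of the deposited chains of each name. The CDR1 sequences of the 3 pairs follow, with the bases that differ within a pair in capitals.
TRAV6D-4: accacaacGtacccaact
TRAV6-4: accacaacAtacccaact
TRAV6N-6: gccacaagcatagGttaccctaat
TRAV6D-6: gccacaagcatagCttaccctaat
TRAV6N-7: gcctcagggtacccaGcT
TRAV6-7-DV9: gcctcagggtacccaAcC
Counted from 1 at the first base of CDR1, the changes are A9G in TRAV6D-4 against TRAV6-4, C14G in TRAV6N-6 against TRAV6D-6, and A16G and C18T in TRAV6N-7 against TRAV6-7-DV9. TRAV6D-6 and TRAV6N-6 have a longer CDR1, of 8 residues, than the 6 residues of the other names. The CDR3 start also followed the name. It was CALV in 54 of 68 TRAV6-4 and 28 of 36 TRAV6D-4 clonotypes and CVLG in 45 of 52 TRAV6-1 clonotypes. It was CALS in 98 of 146 TRAV6N-6 clonotypes, against CALG in 326 of 368 TRAV6D-6 clonotypes, and CALG in 203 of 239 TRAV6N-7 clonotypes, against CALS in 145 of 194 TRAV6-7-DV9 clonotypes.

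Cells with 1 or 2 productive alpha chains and exactly 1 productive beta (TRB) chain were counted, 19115 in all, and grouped into 10624 clonotypes by their rearrangements within a library. LNP-P20-mAb libraries held 2016 to 3263 such cells in 400 to 1354 clonotypes, and LNP-Ctrl libraries 3333 to 3923 cells in 1800 to 3416 clonotypes. LNP-P20-mAb 1 and 2 shared 19 TRAV6 clonotypes with identical alpha and beta nucleotide sequences. In LNP-P20-mAb 1 these 19 held 87.2% of TRAV6 cells, and in LNP-P20-mAb 2 they held 82.6%. The pair was therefore also treated as 1 pooled library where that moved a result. The other library pairs shared 0 or 1 TRAV6 clonotype. Shared clonotypes were counted for TRAV6 only, so these counts do not set the family apart from others. Alpha receptors also found in any other library were counted for both. In LNP-P20-mAb 1 and 2 they made up 17.2% and 22.2% for TRAV6, against 12.7% and 13.3% for other alpha chains. In the other libraries the ranges were 6.36% to 9.43% for TRAV6 and 6.78% to 10.9% for other alpha chains. Any 2 libraries had 11 to 29 cell barcodes in common, and 1 barcode had a TRAV6 chain in both, in LNP-Ctrl 2 and 3.

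TRAV6 led 1213 clonotypes with 2245 cells, where the leading alpha chain is the one on most cells of a clonotype. Its share of cells was 12.2%, 10.9% and 11.3% in LNP-P20-mAb 1 to 3 and 7.20%, 14.8% and 13.1% in LNP-Ctrl 1 to 3. Its share of clonotypes was 11.7%, 13.5% and 11.9% in LNP-P20-mAb libraries and 10.7%, 11.1% and 11.6% in LNP-Ctrl libraries. By cells the LNP-Ctrl libraries lay on both sides of all LNP-P20-mAb libraries, and by clonotypes each LNP-P20-mAb library lay above each LNP-Ctrl library by small margins. Clonotype shares averaged 12.4% ± 0.974 for LNP-P20-mAb libraries and 11.1% ± 0.478 for LNP-Ctrl libraries (SD, n = 3 each).

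By clonotypes, TRAV6D-6 was the most used name, with 368 of the 1213 (30.3%). TRAV6N-7 followed with 239, TRAV6-7-DV9 with 194, TRAV6N-6 with 146, TRAV6-5 with 110, TRAV6-4 with 68, TRAV6-1 with 52 and TRAV6D-4 with 36. The order by cells was different, because TRAV6-4 had 442 cells and ranked second to TRAV6D-6 with 518 cells. Large clones, of 20 cells or above, accounted for 80.8% of TRAV6-4 cells, 40.3% of TRAV6D-4 cells, 35.9% of TRAV6N-6 cells, 24.2% of TRAV6-7-DV9 cells, 9.85% of TRAV6D-6 cells and 9.48% of TRAV6N-7 cells. TRAV6-5 and TRAV6-1 had no clone of that size. Over the whole family the share was 29.8% of cells, against 32.3% among other alpha chains.

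**Figure D1:**
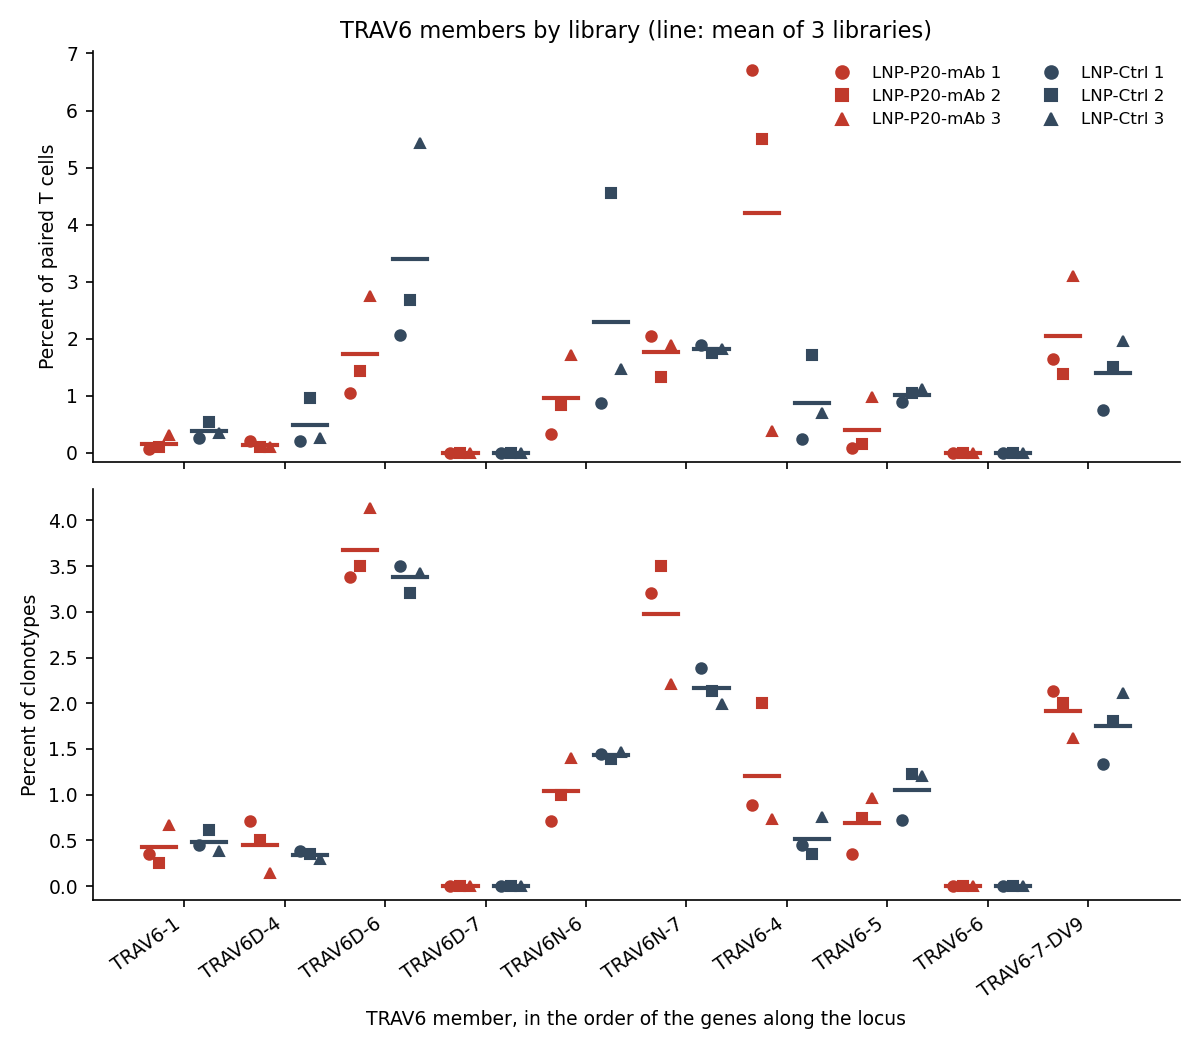
Share of each TRAV6 member among paired T cells (upper panel, percent) and among clonotypes (lower panel, percent). Points are single libraries, LNP-P20-mAb to the left of LNP-Ctrl for each name, and lines are means of 3 libraries. TRAV6-4 reached 6.71% and 5.51% of cells in LNP-P20-mAb 1 and 2, while its clonotype shares of the 2 treatments overlapped.

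No TRAV6 member passed the test for a changed share of clonotypes after LNP-P20-mAb relative to LNP-Ctrl. Clonotype counts of all V and J segments with at least 30 clonotypes were fitted together with edgeR's quasi-likelihood test. Of 151 segments tested, 7 passed an adjusted p of 0.05 (4.64% called), with 3 (1.99%) up and 4 (2.65%) down after LNP-P20-mAb. Among the TRAV6 members 0 of 8 passed in edgeR, and 0 were below an unadjusted p of 0.05, where 27 of the 151 segments (17.9%) lay. DESeq2 also called 0 members, with 1 below an unadjusted p of 0.05. The median log2 ratio of LNP-P20-mAb to LNP-Ctrl was 0.07 over the 8 members and -0.05 over the 151 segments.

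TRAV6-4 had the estimate farthest from 0. It made up 0.890%, 2.00% and 0.739% of clonotypes in LNP-P20-mAb 1 to 3, against 0.444%, 0.356% and 0.761% in LNP-Ctrl 1 to 3. LNP-P20-mAb 3 lay below LNP-Ctrl 3, so the groups overlapped. The log2 ratio was 0.91 ± 0.44 (SE; edgeR adjusted p = 0.265), and 0.69 ± 0.45 with LNP-P20-mAb 1 and 2 pooled. Over left-out libraries it ran from 0.54, without LNP-P20-mAb 2, to 1.37, without LNP-Ctrl 3, and the adjusted edgeR p over all alternatives ran from 0.117 to 0.641. By cells, TRAV6-4 made up 6.71%, 5.51% and 0.387% in LNP-P20-mAb libraries, against 0.240%, 1.71% and 0.696% in LNP-Ctrl libraries. The high values were those of LNP-P20-mAb 1 and 2, whose TRAV6-4 cells belonged mostly to 1 shared clonotype.

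TRAV6-5 gave the lowest estimate. It had 0.356%, 0.750% and 0.960% of clonotypes in LNP-P20-mAb libraries, against 0.722%, 1.23% and 1.20% in LNP-Ctrl libraries, a log2 ratio of -0.50 ± 0.40 (edgeR adjusted p = 0.525). TRAV6N-6 had 0.712%, 1.00% and 1.40% in LNP-P20-mAb libraries, against 1.44%, 1.39% and 1.46% in LNP-Ctrl libraries (-0.32 ± 0.33, edgeR adjusted p = 0.678). TRAV6-5 values overlapped between treatments, and TRAV6N-6 values overlapped at LNP-P20-mAb 3 and LNP-Ctrl 2. TRAV6N-7 had 3.20%, 3.50% and 2.22% in LNP-P20-mAb libraries, against 2.39%, 2.13% and 1.99% in LNP-Ctrl libraries (0.36 ± 0.24, edgeR adjusted p = 0.436). The other members, TRAV6D-6, TRAV6-7-DV9, TRAV6-1 and TRAV6D-4, had log2 ratios of 0.17 ± 0.19, 0.04 ± 0.29, 0.09 ± 0.47 and 0.05 ± 0.56 (SE). TRAV6D-6, the most used, had 3.38%, 3.50% and 4.14% in LNP-P20-mAb libraries, against 3.50%, 3.20% and 3.43% in LNP-Ctrl libraries.

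**Figure D2:**
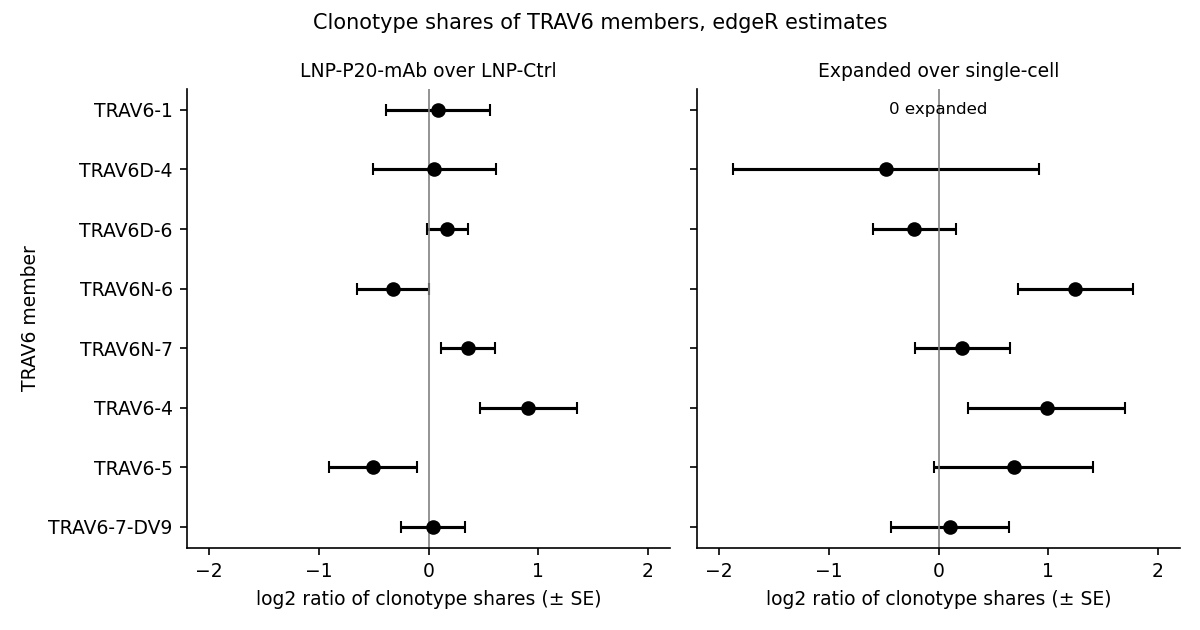
Log2 ratio of clonotype shares (horizontal axis, edgeR estimate ± SE) for the 8 TRAV6 members found, between LNP-P20-mAb and LNP-Ctrl (left) and between expanded and single-cell clonotypes (right). The points with the highest estimates are TRAV6-4 at 0.91 on the left and TRAV6N-6 at 1.25 on the right, and TRAV6-1 has 0 expanded clonotypes and no ratio.

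Expanded clonotypes, defined as those with 3 or more cells, were compared with clonotypes seen in 1 cell within the same libraries. TRAV6 made up 65 of 468 expanded clonotypes (13.9%) and 1113 of 9784 single-cell clonotypes (11.4%). Of 151 segments, 3 passed an adjusted p of 0.05 in edgeR's quasi-likelihood test with library as a block (1.99% called), and 0 of 8 TRAV6 members did. Below an unadjusted p of 0.05 in edgeR there was 1 member of 8, and DESeq2 called 0. The median log2 ratio was 0.22 over the 7 members with an estimate and -0.19 over all 151 segments.

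TRAV6N-6 was that member, at a threshold that 22 of the 151 segments (14.6%) also reached. It had 13 of 468 expanded clonotypes (2.78%) against 128 of 9784 single-cell clonotypes (1.31%), a log2 ratio of 1.25 ± 0.52 (SE; edgeR adjusted p = 0.207). The 13 expanded clonotypes came from every library, with 1, 1 and 5 in LNP-P20-mAb 1 to 3 and 1, 4 and 1 in LNP-Ctrl 1 to 3. They held 10 distinct alpha rearrangements. LNP-P20-mAb 1 and 2 had 1 TRAJ21 clonotype in common (8 and 14 cells). In LNP-P20-mAb 3, 1 TRAJ37 rearrangement stood with 2 beta chains (18 and 6 cells). In LNP-Ctrl 2, 1 TRAJ5 rearrangement stood with 2 beta chains (68 and 13 cells). The clonotypes of 18 and of 13 cells each had 8 cells with 2 alpha chains. In that of 13 cells the TRAV6N-6 chain was on 11. With cells counted in place of clonotypes the TRAV6N-6 estimate was 0.019, and over left-out libraries it ran from 0.93, without LNP-P20-mAb 3, to 1.56, without LNP-Ctrl 1. TRAV6-4 had 7 expanded against 59 single-cell clonotypes (0.99 ± 0.72). TRAV6-1 had 0 expanded clonotypes, which allows up to 0.641% of the 468, against 48 single-cell clonotypes (0.491%), so its absence from expanded clones was not detectable at this depth. TRAV6D-6 had 15 against 347, TRAV6N-7 14 against 222, TRAV6-7-DV9 9 against 180, TRAV6-5 6 against 99 and TRAV6D-4 1 against 30, with estimates from -0.48 to 0.68.

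Of the TRAV6 cells, 87.7%, 81.3% and 57.8% belonged to clonotypes of 2 or more cells in LNP-P20-mAb 1 to 3, against 24.6%, 44.0% and 21.8% in LNP-Ctrl 1 to 3. The treatments did not overlap in this value. Among other alpha chains the shares were 85.8%, 85.3% and 58.6% in LNP-P20-mAb libraries and 52.6%, 22.9% and 10.3% in LNP-Ctrl libraries. TRAV6 thus tracked the rest of the repertoire within a few points in the LNP-P20-mAb libraries. In LNP-Ctrl libraries it lay below the rest in LNP-Ctrl 1 and above it in LNP-Ctrl 2 and 3. With every library thinned to 2016 cells, the TRAV6 shares were 86.3%, 81.3% and 55.8% in LNP-P20-mAb libraries and 23.4%, 41.9% and 19.9% in LNP-Ctrl libraries.

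The TRAV6 clonotypes of 20 or more cells numbered 10, of 1213. Other alpha chains had 68 of that size, of 9411. In each library the largest TRAV6 clonotype was among the 19 largest clonotypes of any family, and in LNP-Ctrl 3 it was the largest of all. LNP-P20-mAb 1 was led by a TRAV6-4 TRAJ9 clonotype of 212 cells (6.50% of its cells, 95% exact binomial interval 5.68% to 7.40%). The same clonotype led LNP-P20-mAb 2 with 88 cells (4.37%, 3.52% to 5.35%). LNP-P20-mAb 3 was led by a TRAV6-7-DV9 clonotype of 50 cells (1.76%, 1.31% to 2.31%).

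LNP-Ctrl 1 was led by a TRAV6N-7 clonotype of 13 cells (0.390%, 0.208% to 0.666%), LNP-Ctrl 2 by a TRAV6N-6 clonotype of 68 cells (1.73%, 1.35% to 2.19%) and LNP-Ctrl 3 by a TRAV6D-6 clonotype of 51 cells (1.36%, 1.02% to 1.79%). The intervals cover counting error only. The other clonotypes of 20 or more cells were TRAV6N-7 TRAJ7 with TRBV20 (33 cells) and TRAV6-7-DV9 TRAJ42 with TRBV13-1 (29 cells) in LNP-P20-mAb 1, and TRAV6-4 TRAJ9 with TRBV19 (57 cells), TRAV6N-6 TRAJ56 with TRBV17 (54 cells) and TRAV6D-4 TRAJ9 with TRBV19 (27 cells) in LNP-Ctrl 2. The alpha CDR3 of the leading clonotypes outside TRAJ9 are given to identify them, in lower case throughout.
LNP-P20-mAb 3, TRAV6-7-DV9 with TRAJ42: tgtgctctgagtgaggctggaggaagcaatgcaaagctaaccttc
LNP-Ctrl 1, TRAV6N-7 with TRAJ39: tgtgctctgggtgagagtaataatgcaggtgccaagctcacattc
LNP-Ctrl 2, TRAV6N-6 with TRAJ5: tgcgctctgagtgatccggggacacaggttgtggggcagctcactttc
LNP-Ctrl 3, TRAV6D-6 with TRAJ26: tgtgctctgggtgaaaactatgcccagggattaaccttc
Their beta chains were TRBV13-3, TRBV23, TRBV26 and TRBV3 in the same order, so the leading clonotypes outside LNP-P20-mAb 1 and 2 had no segment pair in common.

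**Figure D3:**
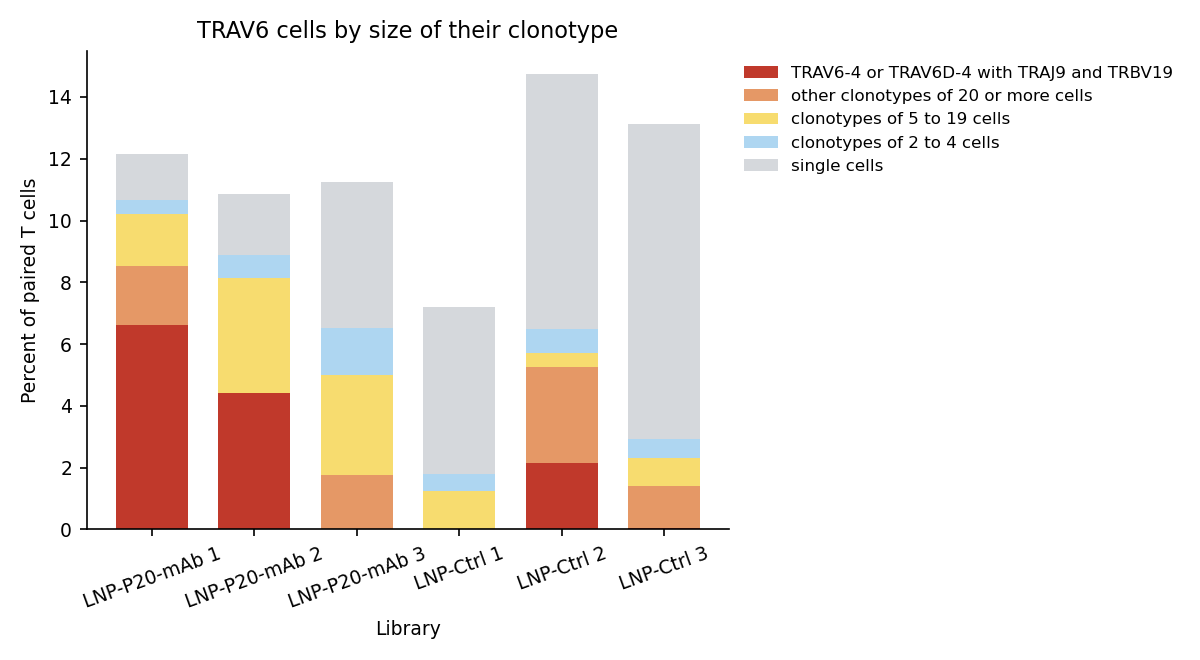
Share of paired T cells with a TRAV6 leading alpha chain (vertical axis, percent) in each library, split by the size of their clonotype. The red part is TRAV6-4 or TRAV6D-4 joined to TRAJ9 and paired with TRBV19, at 6.62% and 4.41% in LNP-P20-mAb 1 and 2 and 2.14% in LNP-Ctrl 2, including 1 cell of LNP-Ctrl 1 with another beta CDR3, and the grey part is single cells, 1.50% to 4.75% across LNP-P20-mAb libraries and 5.40% to 10.2% across LNP-Ctrl libraries.

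The large TRAV6-4 and TRAV6D-4 clonotypes were built alike. Of 104 clonotypes with either name, 12 used TRAJ9 (11.5%), against 303 of 10520 with other alpha chains (2.88%). Clonotypes were counted per library on both sides, so a receptor found in several libraries counts in each of them. Among the 12 this applies to the clonotypes shared by LNP-P20-mAb 1 and 2. Within the family, TRAJ9 was in 14 of 146 TRAV6N-6 clonotypes (9.59%) and 12 of 239 TRAV6N-7 clonotypes (5.02%), and in at most 2 clonotypes of each other member. Of the 12 TRAV6-4 or TRAV6D-4 clonotypes, 10 had a TRBV19 beta chain, against 8 of the 92 with another TRAJ (8.70%) and 753 of 10520 with other alpha chains (7.16%). In 9 of the 10 the beta CDR3 read CASS, any residue, GT, any residue, NTEVFF, with TRBJ1-1. The group was noticed among the large clonotypes after their values were seen, so it is a description with no test. These 9 clonotypes held 391 cells in 4 libraries, which is 76.8% of all TRAV6-4 and TRAV6D-4 cells. They had 216, 89 and 0 cells in LNP-P20-mAb 1 to 3 (6.62%, 4.41% and 0%), against 0, 84 and 2 cells in LNP-Ctrl 1 to 3 (0%, 2.14% and 0.0535%). For LNP-P20-mAb 3 a count of 0 allows a share of up to 0.106%, and for LNP-Ctrl 1 up to 0.0900%.

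All alpha CDR3 of the group had 45 bases and differed at only 7 of them, in 1 block at the junction, shown in capitals.
LNP-P20-mAb 1 (212 cells), LNP-P20-mAb 2 (88 cells) and LNP-Ctrl 3 (1 cell), TRAV6-4: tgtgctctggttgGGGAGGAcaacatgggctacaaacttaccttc
LNP-P20-mAb 1 (2 cells), TRAV6D-4: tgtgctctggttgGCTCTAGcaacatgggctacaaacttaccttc
LNP-P20-mAb 1 (2 cells) and LNP-P20-mAb 2 (1 cell), TRAV6D-4: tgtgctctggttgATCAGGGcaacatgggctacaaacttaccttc
LNP-Ctrl 2 (57 cells), TRAV6-4: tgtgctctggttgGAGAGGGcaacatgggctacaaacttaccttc
LNP-Ctrl 2 (27 cells), TRAV6D-4: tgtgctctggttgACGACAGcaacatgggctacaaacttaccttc
LNP-Ctrl 3 (1 cell), TRAV6-4: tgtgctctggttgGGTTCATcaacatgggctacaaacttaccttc
The 6 sequences were thus separate rearrangements with the same length, on both TRAV6-4 and its D copy. For the beta chains, the pattern that defined the group had already fixed the length and most residues. It left out the TRAJ9 and TRBV19 clonotype of LNP-Ctrl 1, of 1 cell, whose alpha and beta CDR3 had other lengths. Within the group the beta CDR3 had 42 bases and differed at 4 of them, again in capitals, in the same order of alpha chains.
TRAV6-4, LNP-P20-mAb 1 and 2 and LNP-Ctrl 3: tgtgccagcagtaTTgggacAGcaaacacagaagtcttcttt
TRAV6D-4, LNP-P20-mAb 1: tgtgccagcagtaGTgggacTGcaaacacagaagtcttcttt
TRAV6D-4, LNP-P20-mAb 1 and 2: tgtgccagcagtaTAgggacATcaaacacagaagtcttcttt
TRAV6-4, LNP-Ctrl 2: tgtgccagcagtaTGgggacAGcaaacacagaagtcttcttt
TRAV6D-4, LNP-Ctrl 2: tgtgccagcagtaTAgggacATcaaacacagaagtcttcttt
TRAV6-4, LNP-Ctrl 3: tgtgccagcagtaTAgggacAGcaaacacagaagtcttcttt
The beta sequence of TRAV6D-4 in LNP-P20-mAb 1 and 2 was the same as that of TRAV6D-4 in LNP-Ctrl 2, although their alpha sequences differed.

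Taken from the beta side, 19 clonotypes in the 6 libraries had this beta CDR3 pattern with TRBV19, with 3, 3 and 2 in LNP-P20-mAb 1 to 3 and 3, 4 and 4 in LNP-Ctrl 1 to 3. TRAV6-4 or TRAV6D-4, which led 0.979% of all clonotypes, was the alpha chain in 12 of the 19. Of these 12, 9 are the clonotypes the pattern was written from. Of the other 7 of the 19, 2 had further TRAV6 members (TRAV6-5 and TRAV6D-6). Another 2 had TRAV6 names outside the list (TRAV6-2 and TRAV6-3), and 3 had other families. TRAV6-4 or TRAV6D-4 with TRAJ12 in place of TRAJ9 was in 3 of the 19, with 1 or 2 cells each. LNP-P20-mAb 3, which had 0 cells of the TRAJ9 and TRBV19 group, had a TRAV6-5 TRAJ9 clonotype of 2 cells with the beta CDR3 residues of the TRAV6-4 clonotype of LNP-P20-mAb 1 and 2. The 1 cell of LNP-Ctrl 3 that matched the clonotype of LNP-P20-mAb 1 and 2 base for base had 3 alpha and 17 beta UMIs, and its barcode was in 0 other libraries. Whether that cell was carried over between libraries was not tested. Without all 10 TRAV6-4 or TRAV6D-4 clonotypes of TRAJ9 and TRBV19, TRAV6 made up 5.94%, 6.75% and 11.3% of the remaining cells in LNP-P20-mAb libraries, against 7.17%, 12.9% and 13.1% in LNP-Ctrl libraries.

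Distinct TRAV6 alpha receptors of paired cells, compared by segments and CDR3 amino acids, were mostly seen in 1 library. Of 1294, 1217 were in 1 library, 66 in 2, 10 in 3 and 1 in 4. Counting LNP-P20-mAb 1 and 2 as 1 library left 6 in 3 and 0 in 4. The receptor in 4 libraries was TRAV6N-7 with TRAJ7, in a pair of nucleotide forms that differed at 2 of 39 bases, shown in capitals.
LNP-P20-mAb 1 and 2, with TRBV20 (33 and 10 cells): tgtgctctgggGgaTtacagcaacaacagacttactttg
LNP-Ctrl 2 and 3, with other beta chains (1 cell each): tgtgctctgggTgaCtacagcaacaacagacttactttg
Of the 11 receptors in 3 or more libraries, 7 were TRAV6D-6, 2 were TRAV6-7-DV9, 1 was TRAV6-4 and 1 was TRAV6N-7. In 6 of the 11 every clonotype was a single cell.

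TRAV6-7-DV9 with TRAJ57 gave a receptor found on 15 cells, in all 3 LNP-P20-mAb libraries and in none of the LNP-Ctrl libraries. It always had the same 42 bases, and always a TRBV13-1 and TRBJ2-7 beta chain of 39 bases. The beta sequences differed at 4 of those bases, in capitals, and were 3 separate rearrangements. The receptor was chosen by its presence in 3 libraries, so no test is given for its absence from LNP-Ctrl.
alpha, all 3 libraries: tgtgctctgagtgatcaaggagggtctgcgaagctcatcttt
beta of LNP-P20-mAb 1 (alpha chain on 5 of 7 cells) and LNP-P20-mAb 2 (on 6 of 6 cells): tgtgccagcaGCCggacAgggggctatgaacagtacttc
beta of LNP-P20-mAb 1 (1 cell): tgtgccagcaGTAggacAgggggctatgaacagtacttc
beta of LNP-P20-mAb 3 (on 3 of 3 cells): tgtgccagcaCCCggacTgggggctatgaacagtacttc
The first pair of beta sequences encode the same residues, and that of LNP-P20-mAb 3 encodes threonine in place of a serine. In the clonotype shared by LNP-P20-mAb 1 and 2 the TRAV6-7-DV9 chain was a second alpha chain beside a TRAV13-2 chain. A TRBV13-1 and TRBJ2-7 beta chain with the same CDR3 end was on 56 and 32 cells of LNP-P20-mAb 1 and 2 with a TRAV10N alpha chain.

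The copies of TRAV6 joined to different parts of the TRAJ cluster. Mean TRAJ number was 24.3 for TRAV6N-7 and 43.8 for its copy TRAV6-7-DV9, the 8th highest of 74 TRAV names. Joins to TRAJ40 or above made up 24 of 239 TRAV6N-7 clonotypes (10.0%) and 139 of 194 TRAV6-7-DV9 clonotypes (71.6%). Joins below TRAJ20 made up 84 of 239 TRAV6N-7 clonotypes (35.1%) and 3 of 194 TRAV6-7-DV9 clonotypes (1.55%). The leading segments were TRAJ31, TRAJ26 and TRAJ22 for TRAV6N-7, and TRAJ49, TRAJ48 and TRAJ50 for TRAV6-7-DV9. Among all other alpha chains 27.4% of clonotypes joined to TRAJ40 or above and 24.5% below TRAJ20.

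The mean TRAJ number of TRAV6N-7 was 23.7, 22.5 and 26.7 in LNP-P20-mAb 1 to 3 and 24.3, 24.0 and 24.0 in LNP-Ctrl 1 to 3. That of TRAV6-7-DV9 was 47.7, 43.3 and 45.7 in LNP-P20-mAb libraries and 41.4, 44.4 and 43.1 in LNP-Ctrl libraries. The values of the 2 copies did not overlap in any library of either treatment. The difference was -20.0 ± 2.31 (SD of the paired differences, n = 6), below 0 in 6 of 6 libraries (two-sided exact sign-flip permutation test, p = 0.03125, the smallest that 6 libraries allow). Adjusted over 6 comparisons of copies p was 0.0375. Of these 6, which share members and are not independent, 5 (83.3%) passed. With LNP-P20-mAb 1 and 2 pooled the difference was -19.7, and 5 libraries cannot give an exact p below 0.0625.

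**Figure D4:**
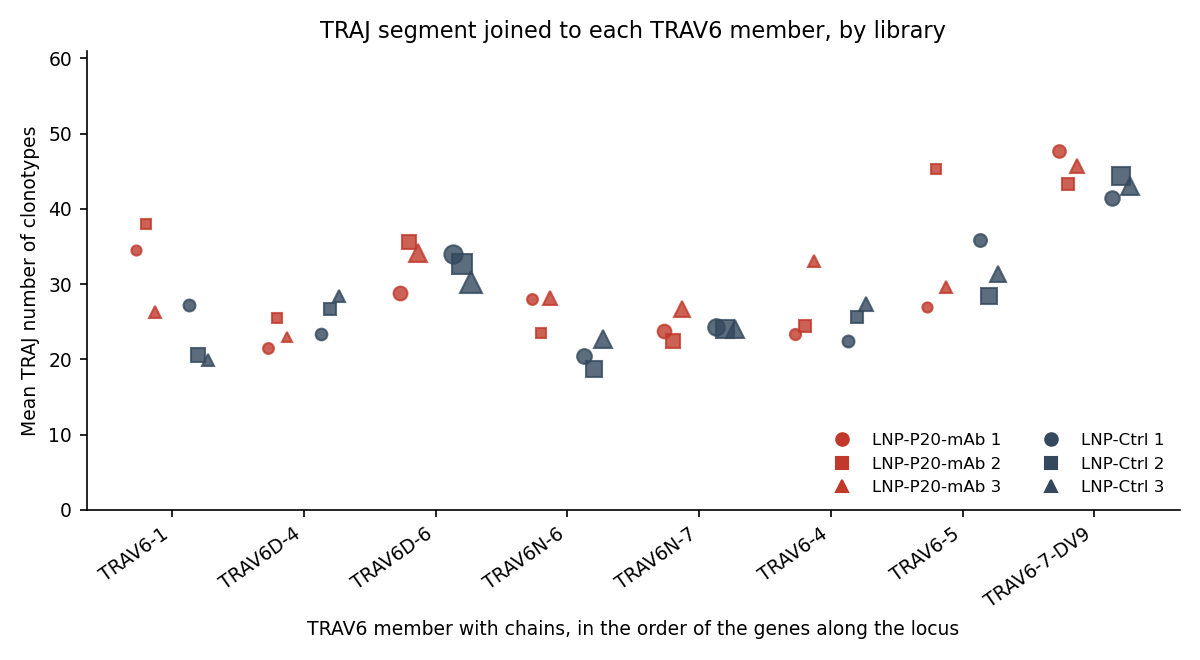
Mean TRAJ number of the clonotypes of each TRAV6 member found (vertical axis), with members in the order of their genes along the locus. Each point is 1 library, LNP-P20-mAb to the left of LNP-Ctrl, and larger points stand for more clonotypes. TRAV6N-7 lies between 22.5 and 26.7 over the 6 libraries, below TRAV6-7-DV9, which lies between 41.4 and 47.7.

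Chains named TRAV6N-6 and chains named TRAV6D-6 differed in the same test. The mean TRAJ number of TRAV6N-6 was 28.0, 23.5 and 28.1 in LNP-P20-mAb libraries and 20.4, 18.8 and 22.6 in LNP-Ctrl libraries. That of TRAV6D-6 was 28.8, 35.6 and 34.1 in LNP-P20-mAb libraries and 34.0, 32.7 and 30.2 in LNP-Ctrl libraries. TRAV6N-6 was lower in 6 of 6 libraries, by -9.00 ± 5.15 (SD, n = 6; exact sign-flip permutation test, p = 0.03125, adjusted p = 0.0375), although in LNP-P20-mAb 1, with 4 TRAV6N-6 clonotypes, the gap was under 1 TRAJ number. TRAV6D-4 and TRAV6-4, at 24.8 ± 2.58 and 26.0 ± 3.81 (SD, n = 6), differed by -1.28 ± 4.43 (p = 0.844 in the same exact permutation test), and some of their libraries held only 2 to 5 clonotypes. Against the sign of that mean, TRAV6D-4 was higher in 4 of 6 libraries. The widest gap was in LNP-P20-mAb 3, at 23.0 against 33.0, with 2 TRAV6D-4 clonotypes.

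Grouped by letter, the mean TRAJ number was 23.8 ± 1.90 for the N copies, 31.8 ± 2.56 for the D copies and 35.9 ± 1.54 for the names without a letter (SD, n = 6). The differences were -12.1 ± 1.73 for N minus no letter, -4.07 ± 3.70 for D minus no letter and 8.00 ± 3.19 for D minus N. Each had the same sign in 6 of 6 libraries (exact sign-flip permutation test, p = 0.03125 and adjusted p = 0.0375 for each). The groups hold different members, since TRAV6-6 and TRAV6D-7 were not found, so the letter and the member cannot be told apart in them. TRAV6D-6 held 368 of the 404 D clonotypes, so both D comparisons rest mainly on that name. The other D name found, TRAV6D-4, had a mean TRAJ number of 25.7. In the RefSeq annotation of GRCm38.p6, used for gene order only, TRAV6-7-DV9 is the last of the 10 members, nearest to the TRAJ cluster, and TRAV6N-7 comes before TRAV6-4. TRAV6-1, the first, had a mean TRAJ number of 23.3, and TRAV6-5, the 8th, had 31.0. By deposited names, the order of the means did not follow the gene order throughout, since TRAV6D-6 (32.3) precedes TRAV6N-6 (22.0), TRAV6N-7 (24.3) and TRAV6-4 (26.7). TRAV6-6, the 9th member in that order, was on 0 chains. Whether any chains named TRAV6D-6 came from TRAV6-6 was not tested, and the D comparisons above share this limit. In the other families with both kinds of name the N copies also had lower means than the names without a letter. The gap was widest in TRAV16 (27.4 against 44.9) and TRAV4 (21.7 against 38.3). It was narrowest in TRAV7 (23.9 against 29.3), TRAV8 (24.0 against 28.9) and the unlisted TRAV6 names (23.4 against 24.6). The D copies had no common order against the N copies. Their means were lower in TRAV12 (22.1 against 22.4), TRAV14 (24.3 against 25.0), TRAV16 (23.8 against 27.4) and TRAV8 (23.3 against 24.0). They were higher in TRAV10 (29.1 against 24.2), TRAV13 (25.1 against 22.9), TRAV7 (24.1 against 23.9) and TRAV9 (31.5 against 23.1). They were also higher for the unlisted TRAV6 names (25.2 against 23.4). Whether these gaps differed between families was not tested.

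**Figure D5:**
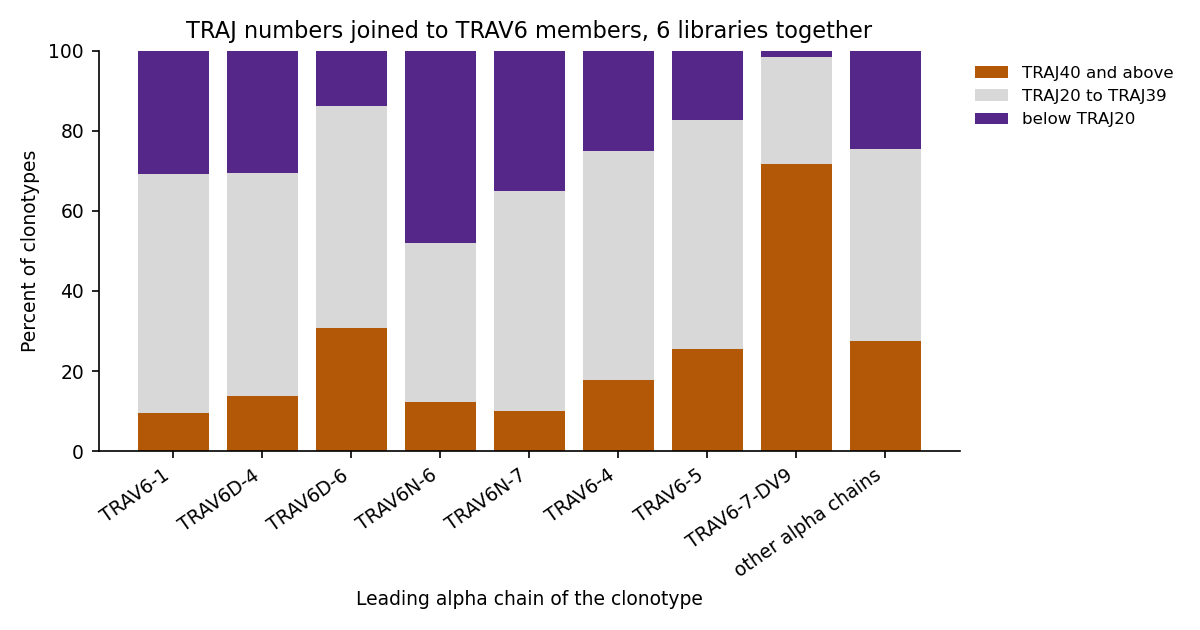
Share of clonotypes (vertical axis, percent) of each TRAV6 member found, and of all other alpha chains, by the number of the joined TRAJ segment, over the 6 libraries. TRAJ40 and above takes 10.0% of TRAV6N-7 clonotypes and 71.6% of TRAV6-7-DV9 clonotypes, and segments below TRAJ20 take 47.9% of TRAV6N-6 clonotypes.

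Taken as a family, TRAV6 had no TRAJ segment that passed the test against other alpha chains. In edgeR's quasi-likelihood test with library as a block, 0 of 43 TRAJ segments passed an adjusted p of 0.05 (0% called), 4 were below an unadjusted p of 0.05, and DESeq2 called 0. The segment with the lowest estimate was TRAJ57. It made up 3.03%, 0% and 1.24% of TRAV6 clonotypes in LNP-P20-mAb libraries and 0%, 1.17% and 0.252% in LNP-Ctrl libraries, while in other alpha chains it ranged from 2.01% to 2.31%. TRAV6 lay below the others in 5 of 6 libraries (log2 ratio -1.49 ± 0.51, SE; edgeR adjusted p = 0.237), with 9 clonotypes in all. With the 5 unlisted TRAV6 names counted as TRAV6, TRAJ57 passed (-1.59, edgeR adjusted p = 0.0152).

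TRAJ42 had the highest estimate. It made up 6.06%, 13.0% and 4.35% of TRAV6 clonotypes in LNP-P20-mAb libraries and 3.13%, 2.04% and 3.02% in LNP-Ctrl libraries, against 1.61%, 1.45% and 1.34% and 1.55%, 2.07% and 2.29% of other alpha chains. TRAV6 was higher in 5 of 6 libraries (0.94 ± 0.34, edgeR adjusted p = 0.237). LNP-P20-mAb 1 and 2, with the highest shares, had TRAJ42 clonotypes of TRAV6-7-DV9, TRAV6N-7, TRAV6D-4 and TRAV6-5 in common. With the pair pooled the TRAJ42 estimate was 0.74 ± 0.33 (edgeR adjusted p = 0.375). TRAJ15 made up 1.72% ± 0.912 of TRAV6 and 3.26% ± 0.318 of other clonotypes (SD, n = 6), lower in 6 of 6 libraries (-0.73 ± 0.29, edgeR adjusted p = 0.248). TRAJ31 was also below an unadjusted edgeR p of 0.05 (0.41 ± 0.18, edgeR adjusted p = 0.534). It made up 5.68% ± 1.27 of TRAV6 and 3.81% ± 0.953 of other clonotypes (SD, n = 6), higher in 6 of 6 libraries. The remaining segments with the farthest estimates were TRAJ52 (0.47 ± 0.38), TRAJ5 (0.47 ± 0.41) and TRAJ28 (-0.70 ± 0.47). Of 12 other families or groups compared, TRAV13, TRAV12 and TRAV14 had the TRAJ shares most like those of TRAV6, with an overlap of 86.2%, 85.2% and 85.2% over 43 TRAJ segments, where 100% would be identical shares.

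The beta chains of TRAV6 clonotypes gave no TRBV segment that passed. Of 22 TRBV segments, 0 had an adjusted p below 0.05 in edgeR's test (0% called), 1 was below an unadjusted p of 0.05, and DESeq2 called 0. TRBV23 had the highest estimate, with 13 TRAV6 clonotypes (1.52% ± 0.978 of TRAV6 against 0.529% ± 0.119 of other clonotypes, SD, n = 6; log2 ratio 0.96 ± 0.64). The name TRBV12-2+TRBV13-2, by which the deposited files leave 2 segments unresolved, was lower with TRAV6 in 6 of 6 libraries, at 6.70% ± 2.82 against 9.90% ± 1.94 (-0.33 ± 0.16, edgeR adjusted p = 0.620). TRBV20 was lower in 6 of 6 libraries, at 1.89% ± 1.42 against 2.87% ± 1.38 (-0.50 ± 0.27). The other named segments were TRBV12-1 (0.30 ± 0.19), TRBV2 (0.24 ± 0.19) and TRBV26 (-0.38 ± 0.27).

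TRAV6 alpha CDR3 loops were slightly longer than those of other alpha chains in every library. Their mean length over clonotypes was 13.9 to 14.0 residues in the LNP-P20-mAb libraries and likewise in the LNP-Ctrl libraries. Other alpha chains averaged 13.6 to 13.7 residues. The difference was 0.300 ± 0.106 residues (SD, n = 6; exact sign-flip permutation test, p = 0.03125, adjusted p = 0.109 over 7 measures). TRAV6-7-DV9 had the longest mean, 14.3 residues, and TRAV6-1 the shortest, 13.5.

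A second alpha chain was in 5.29%, 6.85% and 10.6% of TRAV6 cells in LNP-P20-mAb libraries and 10.4%, 9.50% and 10.8% in LNP-Ctrl libraries, against 8.48%, 7.79% and 25.5% and 11.0%, 13.3% and 14.7% of other cells. The difference of -4.55 ± 5.26 points had the same sign in 6 of 6 libraries, and its size came mainly from LNP-P20-mAb 3 (exact sign-flip permutation test, p = 0.03125, adjusted p = 0.109). With every alpha chain of a cell counted the difference turned to 3.22 points. Neither CDR3 length nor the second alpha chain passed the adjusted threshold. Both already had the smallest p that 6 libraries allow. Adjusted over the 7 measures, neither could pass unless more of the measures reached that p. The adjusted p therefore cannot tell whether these differences are consistent. Beta CDR3 length (0.215 ± 0.222 residues), mean TRAJ number (0.745 ± 0.958), alpha UMIs per chain (-0.581 ± 0.417), the share of cells in clonotypes of 2 or more (0.282 ± 16.6 points) and the share of alpha receptors also found in another library (1.74 ± 4.15 points) gave adjusted exact permutation p-values from 0.109 to 0.969. Between treatments, TRAV6 minus other passed the test in none of the 7 measures, and the lowest exact permutation p was 0.2, where 3 against 3 allows 0.1.

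Leaving out cells with 2 beta chains removed many cells of 4 TRAV6 clones in the LNP-P20-mAb libraries, and most of all in LNP-P20-mAb 3. There 130 of 499 TRAV6 barcodes (26.1%) carried 2 productive beta chains, against 7.98% of barcodes with other alpha chains. In the other 5 libraries the TRAV6 share was 5.15% to 7.92%, against 5.77% to 14.9% with other alpha chains. Over the 6 libraries the difference averaged 1.20 points (exact sign-flip permutation test, p = 0.938), and without LNP-P20-mAb 3 it was -2.17 points. In LNP-P20-mAb 1, a TRAV6D-6 TRAJ49 chain stood with the same pair of TRBV12-1 chains on 13 of 22 barcodes. A TRAV6N-6 TRAJ21 chain stood with a pair of TRBV16 chains on 7 of 15 barcodes of LNP-P20-mAb 1 and 13 of 27 of LNP-P20-mAb 2. The other clones were in LNP-P20-mAb 3. Their alpha CDR3 follow, to identify them.
TRAV6N-7 with TRAJ33: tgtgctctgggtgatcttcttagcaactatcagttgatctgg
TRAV6N-6 with TRAJ37: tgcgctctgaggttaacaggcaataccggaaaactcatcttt
The TRAV6N-7 chain was on 72 barcodes of LNP-P20-mAb 3. On 55 of them it stood with a pair of TRBV3 chains, one at a median of 22 UMIs and one at a median of 9 UMIs. The chain with fewer UMIs was on 539 barcodes of that library, and the other on 70.

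The TRAV6N-6 chain was also on 72 barcodes of LNP-P20-mAb 3. On 46 it stood with a TRBV13-1 chain at a median of 29 UMIs and a TRBV12-1 chain at a median of 11 UMIs. That TRBV12-1 chain was on 46 barcodes in all, so every one of its barcodes had this alpha chain and both beta chains. Another 18 cells paired the same alpha chain with a different TRBV12-1 beta chain. With barcodes of 2 beta chains kept, TRAV6 made up 11.1%, 10.7% and 14.0% of cells in LNP-P20-mAb libraries and 7.27%, 14.4% and 12.8% in LNP-Ctrl libraries, and the largest TRAV6 clonotype of LNP-P20-mAb 3 became the TRAV6N-7 one with 55 cells. Whether these barcodes held 1 cell or more was not tested.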

How the data were processed

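Per the labels' protocols, tumours were dissociated, CD45+ cells were sorted, and T cell receptor libraries were made with the Chromium V(D)J enrichment kit for mouse. Per the submitters' processing notes, Cell Ranger 8.0.1 was used. Which genome build served as its reference is not stated there. The deposited tables list 1 assembled chain per row with its V and J names, CDR3, read count and UMI count, and whether it was productive. Segment names were used as deposited. No source used here says how near-identical copies were told apart.

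From these tables, repeated chains of a barcode were merged, barcodes with 1 or 2 alpha chains and exactly 1 beta chain were kept, and cells of a library with the same beta rearrangement and a shared alpha chain formed a clonotype. Doublets were treated only by that filter. Clonotype counts per segment (minimum 30) were tested with edgeR 4.0.16 (quasi-likelihood, library size as all clonotypes, Benjamini-Hochberg adjustment), and with DESeq2 1.42.0 as an alternative, in R 4.3.3. Within-library differences used exact sign-flip permutation tests, and differences between treatments exact permutation tests, with scipy 1.17.1, all two-sided. The tests were tested on simulated data. Alternatives were other scaling, no filter, cells in place of clonotypes, merged copy names, 2-beta barcodes kept, LNP-P20-mAb 1 and 2 pooled, each library left out, every alpha chain counted and unlisted TRAV6 names included. The last 2, pooling in the comparison of copies, leaving out the TRAJ9 and TRBV19 group, thinning libraries to 2016 cells (mean of 200 draws) and leaving libraries out of the 2-beta share were chosen after seeing the data.

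Named were all members, TRAJ and TRBV segments that passed plus the 3 with the farthest estimates in each direction, the largest TRAV6 clonotype of each library with all of 20 or more cells, and alpha receptors in 3 or more libraries. The TRAJ9 and TRBV19 group, the TRAJ57 receptor, the 2-beta clones and TRAJ31 among the TRAJ segments were picked after their values were seen. The members and lists were chosen with earlier results of these data known.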

Additional observations from a re-analysis of the deposited data

How the results depend on the processing

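Of 659 values recomputed for 54 results, 563 were classed as the same, 50 as reversed, 36 as weaker, 9 as moved and 1 as stronger. For estimates, the same meant an unchanged direction and side of the threshold. Some of the values were counts of tests passed, which have no direction. For LNP-P20-mAb against LNP-Ctrl, 0 members passed under any alternative, and log2 ratios turned negative for TRAV6-1 with 2-beta barcodes kept (-0.21), cells counted (-1.25) or every alpha chain counted (-0.12). They also did so for TRAV6D-4 with LNP-P20-mAb 1 and 2 pooled (-0.29), cells counted (-1.73) or every alpha chain counted (-0.041), for TRAV6-7-DV9 pooled (-0.0036), for TRAV6D-6 by cells (-0.96) and for TRAV6N-7 by cells (-0.043). Leaving out 1 library gave -0.62 to 0.33 for TRAV6-1, -0.10 to 0.21 for TRAV6-7-DV9 and -0.54 to 0.87 for TRAV6D-4. Same-numbered libraries did not deviate together (correlations of -0.0644, -0.152 and -0.0769 over 151 segments), and with the replicate number as a block 0 members passed, with TRAV6-4 at 0.94 (edgeR adjusted p = 0.236).

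For expanded against single-cell clonotypes, 1 member passed with cells counted, TRAV6-1, which has 0 expanded clonotypes. Signs changed by cells for TRAV6-5 (-2.06), TRAV6-7-DV9 (-1.57) and TRAV6N-7 (-1.56), and TRAV6N-6 was 0.019. TRAV6-7-DV9 was also negative with DESeq2 (-0.070), pooling (-0.057), TMM scaling (-0.18) and 2-beta barcodes kept (-0.018), and TRAV6N-7 with TMM (-0.048). TRAV6D-4 turned positive with DESeq2 (0.16), pooling (1.39) and 2-beta barcodes kept (0.15), and TRAV6D-6 with every alpha chain counted (0.067). Leave-one-out values ran from -0.10 to 0.93 for TRAV6-5 and from -0.50 to 0.35 for TRAV6-7-DV9. For TRAJ segments, 1 passed with unlisted names counted, and TRAJ5 ran from -0.38 to 0.75 over left-out libraries. TRBV12-1 by cells was -0.14.

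For TRAV6 minus other within libraries, mean TRAJ number was -0.970 by cells and -0.177 with unlisted names, and a second alpha chain was 3.22 points more frequent with every alpha chain counted. The share of cells in clonotypes of 2 or more was -0.0893 points with every alpha chain and -1.58 with unlisted names, and -3.88 to 5.94 over left-out libraries. Between treatments, alpha CDR3 length was 0.0155 residues pooled (-0.114 to 0.0305 over left-out libraries). Alpha UMIs were 0.0393 with 2-beta barcodes kept (-0.428 to 0.185), second alpha chains -6.28 to 0.698 points, and cells in clonotypes of 2 or more 0.233 points with 2-beta barcodes kept (-17.3 to 7.30).

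For the copies, 5 libraries cannot go below an exact p of 0.0625, so 0 comparisons passed pooled or with any library left out. Pooled differences were -3.90 for D minus no letter, -11.9 for N minus no letter, 8.02 for D minus N, -9.26 for TRAV6N-6 minus TRAV6D-6 and -19.7 for TRAV6N-7 minus TRAV6-7-DV9. Left-out libraries gave -4.60 to -2.66, -12.7 to -11.6, 7.28 to 8.99, -10.6 to -8.01 and -20.6 to -19.2 in that order, and -1.77 to 0.460 for TRAV6D-4 minus TRAV6-4. With every alpha chain counted TRAV6N-6 minus TRAV6D-6 was -8.10. Merging copy names gives no value for this comparison. The causes of these shifts were not tested. Low numbers limit the precision for TRAV6D-4, with 2 to 11 clonotypes per library, and TRAV6-1, with 1 to 19.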
